A study of Tuber borchii with 4 samples.

Results

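The gene models with the protein IDs '990338' and '1039918' are the pair of molecular chaperone genes that the study lists among the most expressed genes of *T. borchii* SP1 mycelium. Their locus tags in the Tubbor1 assembly are B9Z19DRAFT_990338 and B9Z19DRAFT_1039918, and they are 2 of the 12346 gene models counted. The study put them on its list because of their high level in these same libraries of the woody-plant-based media, so a high level there is what selected them and is given as a description. B9Z19DRAFT_990338 is annotated as a small heat shock protein of the Hsp26/Hsp42 type, in the Hsp20 family, and its model as that of a secreted protein, and it is called the small heat shock gene here. B9Z19DRAFT_1039918 is described in the sources used here as a molecular chaperone, its class was not found in the part of the annotation at hand, and it is called the unclassed chaperone gene. The study's text names Hsp20 and Hsp70 proteins among the most expressed genes of the woody-plant-based media, without assigning this gene to either.

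Chaperones are proteins that help other proteins to reach or keep their folded state. Small heat shock proteins bind unfolding proteins and keep them from aggregating, without using ATP. Chaperones of the Hsp70 family then refold such proteins in cycles driven by ATP, Hsp90 acts with cochaperones on proteins that are nearly folded, and chaperonins fold proteins inside a closed chamber. In yeast the small heat shock genes are known for strong transcription under heat and other stresses and on entry into stationary phase.

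The SP1 strain, the mycelial isolate that the study obtained from a truffle, was grown axenically in the dark at 22 °C in static submerged cultures, and 1 RNA library was made from each of 4 media. The synthetic woody-plant-based media contained 20 g/L glucose, with 5 g/L yeast extract (WPGY) or without it (WPG). The complex media were MPY, with 35 g/L of maltose and 5 g/L each of yeast extract and peptone, and PDB, with 20 g/L potato dextrose broth. WPGY and WPG were harvested on day 65 and MPY and PDB on day 85 by the sample labels, whereas the headers of the count columns give day 64 for WPGY and WPG and day 83 for MPY. The type of medium and the day of harvest therefore cannot be told apart. Library totals lay between 47969567 counts in MPY and 157335190 counts in PDB. Levels are given as counts per 1000000 counts of the library (CPM). With 1 library per medium no difference has a replicate check, no test was made, and the intervals (95%, exact binomial) cover counting error only.

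The small heat shock gene was the most expressed gene of both woody-plant-based cultures and lay far lower in both complex media. Its model spans 495 bp on sequence 186 of the assembly (146604 to 147098). It had 3147759 counts in WPGY, 2984479 in WPG, 54656 in MPY and 114715 in PDB. In CPM these were 25090.3 in WPGY (interval 25063 to 25118), 25645 in WPG (25616 to 25674), 1139 in MPY (1129.9 to 1149) and 729 in PDB (724.9 to 733.3). The woody-plant-based cultures were thus close to each other, and the complex media stood apart from them and, by less, from each other.

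In the woody-plant-based cultures the small heat shock gene was well ahead of all other genes in CPM. The gene at the second rank had 15101 CPM in WPGY and 14854 CPM in WPG, so that the small heat shock gene was 1.66 times as high as the next gene in WPGY and 1.73 times as high in WPG. In the complex media it was still among the more expressed genes, at rank 87 in MPY and 160 in PDB. At least 98.7% of all gene models were at or below its level in every library. Its neighbours in rank in MPY and PDB were close to it, at 1142 and 1138 CPM in MPY and at 734 and 728 CPM in PDB, so that its rank there is set by small differences.

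The unclassed chaperone gene showed the wider gap between the types of media. Its model spans 651 bp on sequence 18 (79293 to 79943). It had 823372 counts in WPGY, 781140 in WPG, 7282 in MPY and 25106 in PDB. In CPM these were 6563 in WPGY (interval 6549 to 6577), 6712 in WPG (6697 to 6727), 152 in MPY (148.3 to 155.3) and 159.6 in PDB (157.6 to 161.6). Again the woody-plant-based cultures were close together, and here the complex media were close together as well.

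The unclassed chaperone gene ranked 4 in WPGY and in WPG, between genes of 9648 and 5866 CPM in WPGY and of 9609.9 and 6072 CPM in WPG. In the complex media it was no longer among the genes of highest CPM, at rank 1666 in MPY and 1653 in PDB. With 86.5% of the gene models at or below it in MPY and 86.6% in PDB, its CPM there was moderate. CPM ignores gene length, and with counts scaled by span it ranked higher, at 540 in MPY and 467 in PDB.

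**Figure D1:**
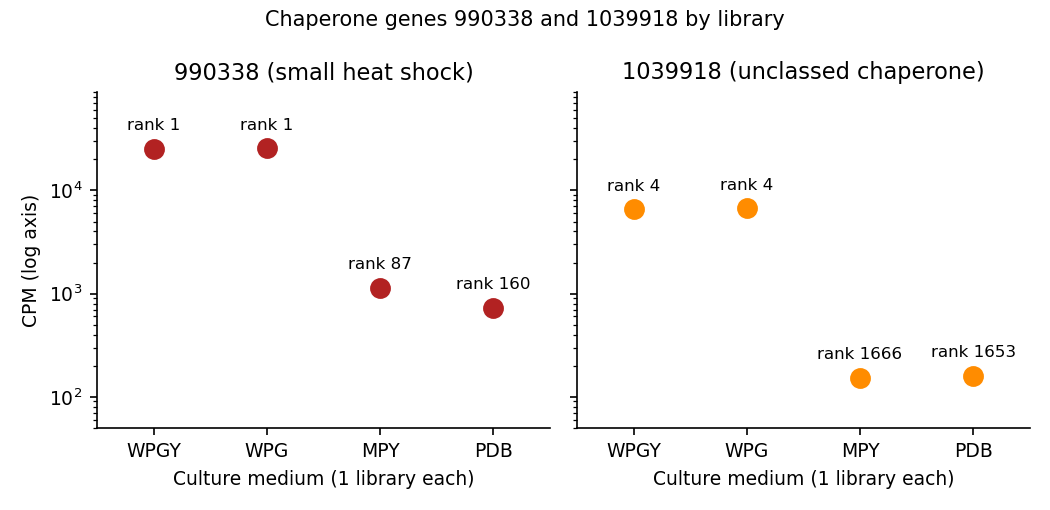
CPM (log axis) of the small heat shock gene and the unclassed chaperone gene in the WPGY, WPG, MPY and PDB libraries, 1 point per library with its rank among all gene models. The small heat shock gene has 25090.3 and 25645 CPM in WPGY and WPG against 1139 and 729 CPM in MPY and PDB, and the unclassed chaperone gene has 6563 and 6712 CPM against 152 and 159.6 CPM; counting intervals are smaller than the points.

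Because CPM ignores gene length, the levels of both chaperones were compared with each other per length of the gene model, introns included. On that scale the small heat shock gene was 5.03 times as high as the unclassed chaperone gene in WPGY (interval 5.02 to 5.04), 5.02 times in WPG (5.01 to 5.04), 9.87 times in MPY (9.63 to 10.1) and 6.01 times in PDB (5.93 to 6.09). The small heat shock gene was the higher of the pair in every library. The proportion between both genes was the same in the woody-plant-based cultures within counting error, and it was wider in the complex media, most of all in MPY. When all gene models were scaled by their span, the small heat shock gene stayed at rank 1 in WPGY and WPG and reached rank 16 in MPY and 34 in PDB, and the unclassed chaperone gene stayed at rank 4 in WPGY and WPG and reached rank 540 in MPY and 467 in PDB. By the study's own normalized values the unclassed chaperone gene stands lower than rank 4 in WPGY and WPG, so that rank depends on the scaling.

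The question behind the main comparison is how transcription in the synthetic woody-plant-based media differed from that in the complex media. For the small heat shock gene the level in WPGY was 22.0 times that in MPY (interval 21.8 to 22.2) and 34.4 times that in PDB (34.2 to 34.6). The level in WPG was 22.5 times that in MPY (22.3 to 22.7) and 35.2 times that in PDB (35.0 to 35.4). For the unclassed chaperone gene the folds were larger and more even. WPGY was 43.2 times as high as MPY (42.2 to 44.2) and 41.1 times as high as PDB (40.6 to 41.7), and WPG was 44.2 times as high as MPY (43.2 to 45.3) and 42.1 times as high as PDB (41.5 to 42.6). From the mean CPM of each type of medium, the small heat shock gene was 27.2 times as high in the woody-plant-based media (25368 against 934 CPM) and the unclassed chaperone gene was 42.6 times as high (6638 against 156 CPM).

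Both genes were at least 2-fold higher in each woody-plant library than in each complex-medium library. For all gene models this limit was applied to the ratio of CPM + 1, among the 8814 models with at least 1 CPM in a library. Of these, 13.7% were at least 2-fold higher in WPGY than in MPY, 10.8% in WPGY than in PDB, 14.3% in WPG than in MPY and 11.3% in WPG than in PDB, and 6.33% passed in all 4 pairs. Among the 90 models with at least 1000 CPM in both woody-plant libraries, the pair included, the share was larger, with 26 (28.9%) past the limit in all 4 pairs. Because both chaperones were listed for their level in the woody-plant-based cultures, their place within these shares is a description.

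The gap of both genes was also placed among those of all models. The smallest of the 4 log2 ratios, each of (CPM + 1), was 4.46 for the small heat shock gene and 5.35 for the unclassed chaperone gene, against a median of -0.21 over the 8814 models. By this smallest ratio the unclassed chaperone gene held place 3 and the small heat shock gene place 7 among all of them. Among the 90 models with at least 1000 CPM in both woody-plant libraries the median was 0.21, and these genes held places 1 and 2. Both the listing of the pair and this filter rest on the level in the woody-plant libraries. The places are therefore a description.

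**Figure D2:**
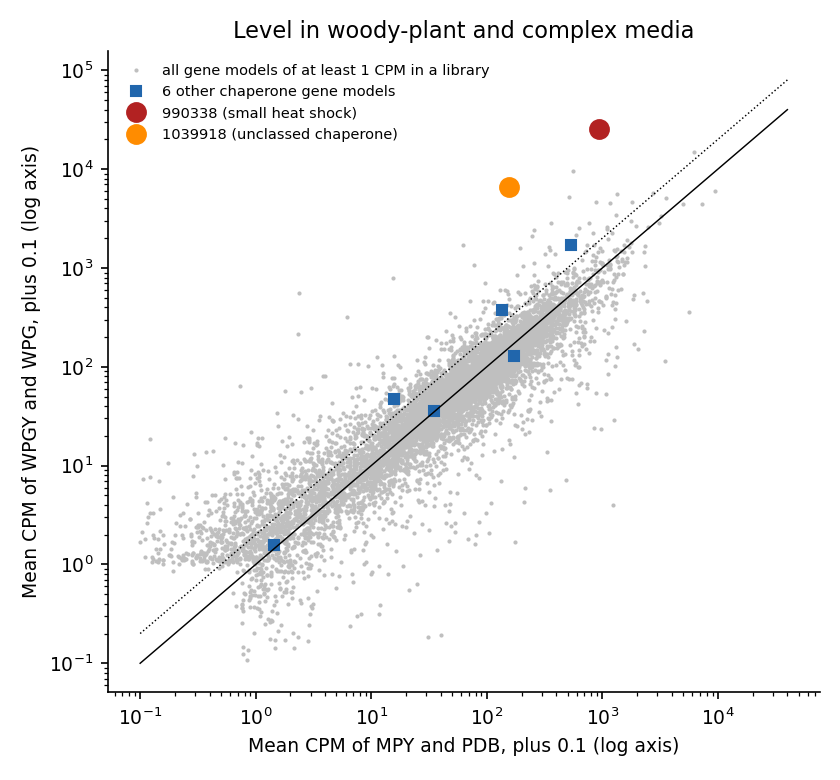
Mean CPM of WPGY and WPG against mean CPM of MPY and PDB, each plus 0.1 on log axes, for every gene model with at least 1 CPM in a library (grey), the 6 other chaperone models (blue squares) and the small heat shock gene and the unclassed chaperone gene. The solid line marks equal levels and the dotted line a 2-fold higher level in the woody-plant-based media; both chaperone genes lie far above it, at 25368 against 934 CPM and at 6638 against 156 CPM.

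The pair made up a visible part of the counts of the woody-plant libraries. The study measures transcription effort on normalized reads, so the raw count shares given here are a different measure. With counts scaled by span, the small heat shock gene took 6.86% in WPGY, 6.94% in WPG, 0.336% in MPY and 0.216% in PDB. On that scale the unclassed chaperone gene took 1.37% in WPGY, 1.38% in WPG, 0.0340% in MPY and 0.0359% in PDB. Together both genes took 3.17% of the raw counts in WPGY and 3.24% in WPG, against 0.129% in MPY and 0.0889% in PDB. The mean CPM was higher in the woody-plant-based media for 6305 gene models, and these differences summed to 233486 CPM. The small heat shock gene had the largest difference of all models (24433 CPM, 10.5% of that sum) and the unclassed chaperone gene the fourth largest (6482 CPM, 2.78%), so that 13.2% of the sum came from this pair.

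On the linear scale of CPM, the small heat shock gene also weighed on r² between libraries. It was listed for its high level in the woody-plant-based media. A change in r² when it is left out thus follows in part from that choice. Across the 12346 gene models, r² in CPM between WPGY and MPY was 0.334 with all genes and 0.507 without the small heat shock gene. Between WPGY and PDB it was 0.216 with all genes and 0.332 without the small heat shock gene. Leaving out the unclassed chaperone gene alone gave 0.342 for WPGY and MPY and 0.222 for WPGY and PDB. Without either gene r² was 0.530 between WPGY and MPY and 0.346 between WPGY and PDB. For WPG the values with all genes were 0.326 (MPY) and 0.213 (PDB), and without either gene 0.527 (MPY) and 0.347 (PDB). Between MPY and PDB r² was 0.517 with all genes and 0.516 without either gene. Between WPGY and WPG it was 0.999 both with all genes and without either gene. The rank correlations (0.956 between WPGY and MPY, 0.968 between WPGY and PDB) were the same with and without the chaperones. These correlations run across genes, which are not independent replicates, and they describe pairs of libraries that differ in depth.

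Adding yeast extract to the woody-plant medium went with almost no difference in either gene. The level in WPGY was 0.978 times that in WPG for the small heat shock gene (interval 0.977 to 0.980) and 0.978 times for the unclassed chaperone gene (0.975 to 0.981). Both log2 ratios were -0.03, where the median of all models was -0.01 and 95% of the models lay between -0.22 and 0.18. The intervals leave out a ratio of 1, and both genes lay within the middle of the distribution, with 37.2% of the models below the ratio of the small heat shock gene and 36.7% below that of the unclassed chaperone gene. The share of models that differed at least 2-fold between WPGY and WPG was 0%.

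Between the complex media the chaperones parted. The small heat shock gene was 1.56 times as high in MPY as in PDB (interval 1.55 to 1.58), a log2 ratio of 0.64 that exceeded those of 85.1% of the models. The unclassed chaperone gene was 0.951 times as high in MPY as in PDB (0.927 to 0.977), a log2 ratio of -0.07 that equalled the median of all models. Neither gene reached a 2-fold difference, which 16.6% of the models did. The order of the media from high to low was therefore WPG, WPGY, MPY and PDB for the small heat shock gene, and WPG, WPGY, PDB and MPY for the unclassed chaperone gene. Whether neighbours in these orders differ by more than separate cultures of 1 medium would cannot be told from 1 library each.

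Other chaperones were sought among the 827 gene models (6.70% of all) whose functional annotation was at hand, a part of the genome that held neither the small heat shock gene nor the unclassed chaperone gene. Of 6 such models, 3 were at least 2-fold higher in each woody-plant library than in each complex-medium library and none was 2-fold lower in all 4 pairs. Of the 8814 models tested, 6.33% were that much higher and 250 models were that much lower. Their median log2 ratios were between 0.48 (WPGY over MPY) and 0.93 (WPG over PDB), against 0.10 and 0.06 for all models. With 6 models from an incomplete list, nothing particular to chaperones can be read from these counts. All 6 lay well below the ratios of the small heat shock gene and the unclassed chaperone gene.

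Of the other chaperones the highest in CPM was 982618, annotated as p23, a cochaperone that binds Hsp90 and slows its release of client proteins. It had 1672 CPM in WPGY, 1747 CPM in WPG, 806 CPM in MPY and 276 CPM in PDB. It was high in both woody-plant-based cultures, lowest in PDB and between them in MPY. Its smallest log2 ratio was 1.05, for WPGY over MPY, just past the limit, and under median-of-ratios scaling that ratio was 0.92. Like the small heat shock gene it was higher in MPY than in PDB, by 2.92-fold.

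Gene 24915 codes for CCT5, the epsilon subunit of the chaperonin TCP-1, which folds actin and tubulin among other proteins. It had 375 CPM in WPGY and 377 CPM in WPG, against 122 CPM in MPY and 148 CPM in PDB. The woody-plant-based cultures were 2.53 to 3.10 times as high as the complex media.

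A pair of Hsp70 models lies on sequence 103. Model 1192977 (154343 to 157057) had 47.0 CPM in WPGY and 48.1 CPM in WPG, against 17.1 CPM in MPY and 14.4 CPM in PDB. Its neighbour 980951 (158940 to 161174), which the naming rule did not select and which was added after its values were seen, had 1.17 CPM in WPGY and 1.75 CPM in WPG, against 1.77 CPM in MPY and 0.915 CPM in PDB. The first was thus at least 2.75 times as high in the woody-plant-based cultures, and the second was near the lower limit of 1 CPM throughout, with its libraries overlapping.

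The remaining models showed no such gap. Gene 963539, subunit 5 of prefoldin, which delivers new actin and tubulin chains to the chaperonin, had 33.9 CPM in WPGY and 37.6 CPM in WPG, against 36.2 CPM in MPY and 33.4 CPM in PDB. Gene 981766, annotated as a chaperone-dependent ubiquitin ligase, an enzyme that marks chaperone-bound proteins for degradation, had 129 CPM in WPGY and 126 CPM in WPG, against 176 CPM in MPY and 169 CPM in PDB. The libraries of both types of media overlapped for prefoldin, and the ligase was a little lower in the woody-plant-based cultures.

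**Figure D3:**
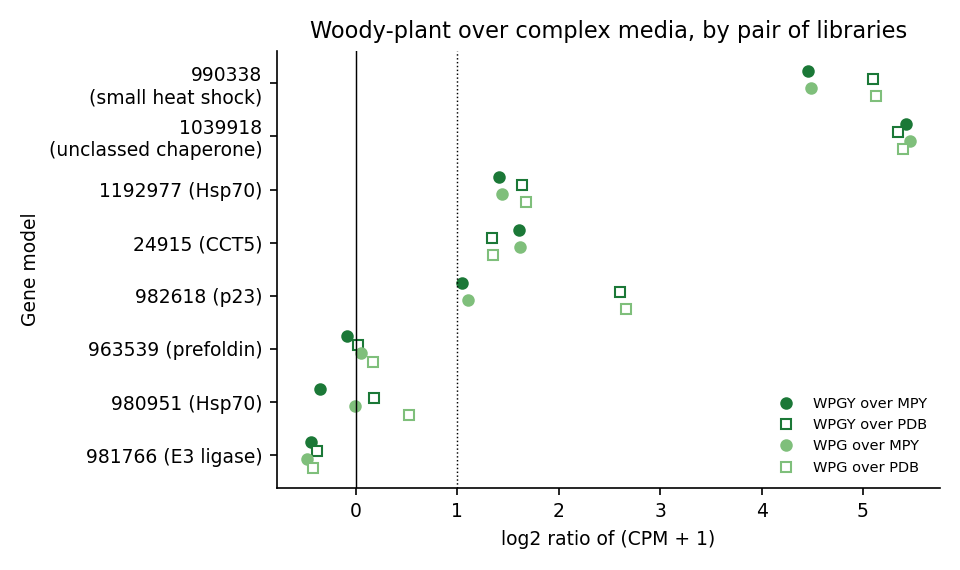
Log2 ratio of (CPM + 1) in each woody-plant library (WPGY or WPG) over each complex-medium library (MPY or PDB) for the small heat shock gene and the unclassed chaperone gene and for 6 other chaperone models; the solid line marks no difference and the dotted line a 2-fold higher level. The smallest ratios of the small heat shock gene and the unclassed chaperone gene are 4.46 and 5.35, those of 1192977, 24915 and 982618 are between 1.05 and 1.41, and no ratio of the other models reaches 1.

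The wider KOG category O (posttranslational modification, protein turnover and chaperones) was counted in the same annotated part. Of its 21 models with at least 1 CPM in a library, 3 (14.3%) were at least 2-fold higher in all 4 pairs and 1 was at least 2-fold lower, and the median of the smallest log2 ratios was -0.12. These 3 are the chaperones 982618, 24915 and 1192977 described above. For all KOG-annotated models of that part the share of higher models was 6.41% of 281, and 8 of the 281 were at least 2-fold lower in all 4 pairs. This category was added after seeing the data.

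The genes whose pattern over the 4 libraries was most like that of the chaperones were sought by the distance between profiles of log2(CPM + 1), each centred on its own mean. Among 7228 models with at least 10 CPM in a library, the median distance was 4.85 from the small heat shock gene and 5.43 from the unclassed chaperone gene. The chaperones were near each other, at a distance of 0.79, which made the unclassed chaperone gene the third nearest model to the small heat shock gene and the small heat shock gene the fourth nearest to the unclassed chaperone gene. Distances over 4 libraries rest mostly on the gap between the types of media.

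The model nearest to the unclassed chaperone gene was 1028216 (sequence 176, 50451 to 52848), at a distance of 0.27. It had 307 CPM in WPGY and 332 CPM in WPG, against 5.11 CPM in MPY and 7.14 CPM in PDB, so that it too was high in both woody-plant-based cultures and low in both complex media. Model 1053269 had 217 CPM in WPGY and 216 CPM in WPG, against 2.56 CPM in MPY and 1.92 CPM in PDB, at a distance of 0.72. Models 895199 and 973256 were among the 5 nearest to both chaperones. Model 895199 had 60.2 CPM in WPGY and 66.9 CPM in WPG, against 0.938 CPM in MPY and 0.337 CPM in PDB. Model 973256 had 2259 counts in WPGY and 2182 in WPG, against 2 in MPY and 0 in PDB. No function is given for these models in the sources used here.

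The model next after the unclassed chaperone gene in distance from the small heat shock gene was 985714, with 9648 CPM in WPGY and 9609.9 CPM in WPG, against 845 CPM in MPY and 259.8 CPM in PDB, at a distance of 0.87. Like the small heat shock gene, it was higher in MPY than in PDB, as were the other nearest models except 1028216 and the unclassed chaperone gene (973256 by 2 counts against 0). Model 983172, at 0.89, had 105 CPM in WPGY and 109 CPM in WPG, against 8.90 CPM in MPY and 3.97 CPM in PDB. With a pseudocount of 0.1 in place of 1, 983172 alone of the 5 models remained among the 5 nearest to the small heat shock gene, and 1028216 and the small heat shock gene remained among the 5 nearest to the unclassed chaperone gene.

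**Figure D4:**
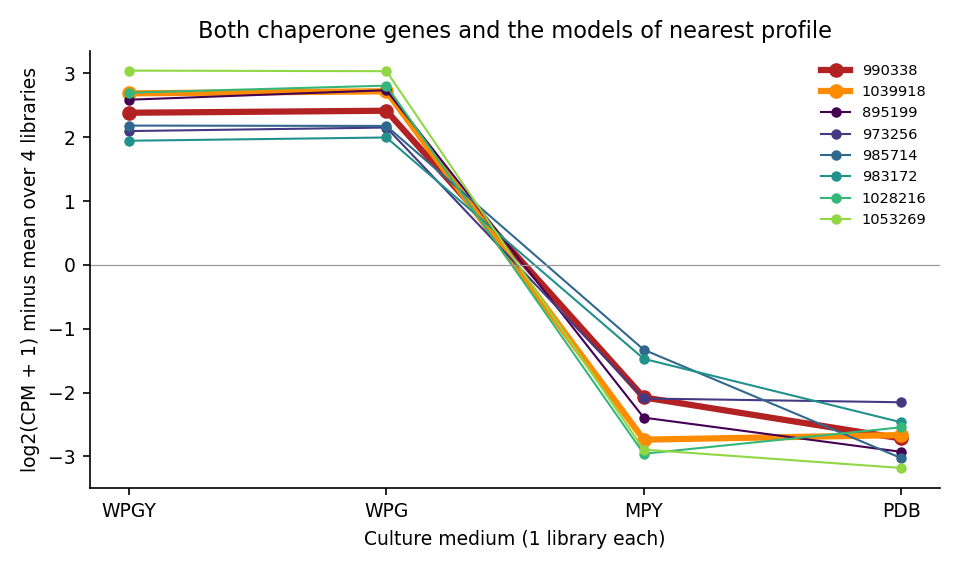
Profiles of the small heat shock gene and the unclassed chaperone gene (thick lines) and of the 6 other gene models among the 5 nearest of either, as log2(CPM + 1) minus its mean over the WPGY, WPG, MPY and PDB libraries. All are high in WPGY and WPG and low in MPY and PDB; of the 6 other models, 1028216 alone is lower in MPY (5.11 CPM) than in PDB (7.14 CPM).

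The surroundings of both genes on the assembly were examined, since overlapping models could share reads. No model overlapped either gene. The small heat shock gene is 1 of 24 models on sequence 186, with a gap of 3346 bp to model 248986 and of 2517 bp to model 1129677. Model 248986 had 96.3 CPM in WPGY and 98.9 CPM in WPG, against 89.6 CPM in MPY and 141 CPM in PDB. Model 1129677 had 119 CPM in WPGY and 123 CPM in WPG, against 96.8 CPM in MPY and 63.5 CPM in PDB. The adjoining genes were thus moderately expressed in all 4 cultures, and neither reached a 2-fold difference between a woody-plant-based and a complex medium. Farther from the gene, among the models drawn within 20 kb, 249382 had 8.30 CPM in WPGY and 9.21 CPM in WPG, against 0.917 CPM in MPY and 1.42 CPM in PDB, and 1088166 had 0.869 CPM in WPGY and 0.791 CPM in WPG, against 0.104 CPM in MPY and 0.0826 CPM in PDB. Both were thus higher in the woody-plant-based cultures, at low levels, and were named after their values were seen.

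The unclassed chaperone gene is 1 of 89 models on sequence 18, with a gap of 1333 bp to model 1073602 and of 1513 bp to model 1073607. Model 1073602 had 360 counts in WPGY and 339 in WPG, against 0 in MPY and 5 in PDB. Taking the 3 counts that a count of 0 allows in a library as the floor, it was at least 45.9-fold higher in WPGY than in MPY and at least 46.6-fold higher in WPG than in MPY. It thus shared the direction of its neighbour, at no more than 2.91 CPM. Model 1073607 had 0.414 CPM in WPGY and 0.344 CPM in WPG, against 1.13 CPM in MPY and 0.451 CPM in PDB, from 40 to 71 counts in a library. Its levels in WPGY and WPG were 0.368 and 0.305 times that in MPY, the opposite direction to the chaperone. Strands of the models are not given in the table used here, and the strand setting of the counting is not given in the sources used here.

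**Figure D5:**
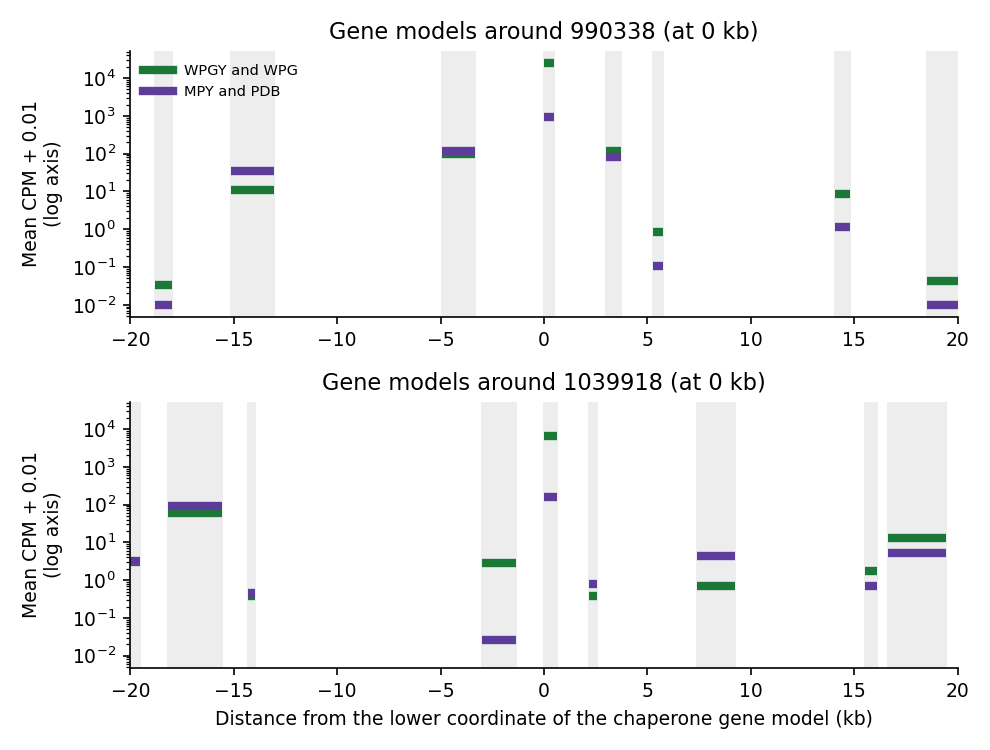
Mean CPM + 0.01 (log axis) of WPGY and WPG (green) and of MPY and PDB (purple) for the gene models within 20 kb of the small heat shock gene (top) and of the unclassed chaperone gene (bottom), drawn at their distance in kb from the lower coordinate of the chaperone gene model; grey bands mark the span of each model. Both chaperone models stand above all others in these windows in the woody-plant-based media, and gaps in the same direction are seen at lower levels for 1073602 near the unclassed chaperone gene and for 249382 and 1088166 near the small heat shock gene, among others, while further models lie the other way.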

How the data were processed

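RNA of mycelium from 4 submerged cultures was sequenced as 1 library per medium. The deposited values are raw counts per gene model. The authors used FastQC and Trimmomatic on the reads, mapped against Tubbor1 (strain Tbo3840) with STAR, and counted with featureCounts. Neither depth nor gene length is corrected, and reads shared by near-identical genes could not be examined.

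Counts were divided by the library total and scaled to 1000000 (CPM). One count was worth between 0.00636 CPM (PDB) and 0.0208 CPM (MPY). Spans and positions for 12345 of the 12346 models came from the annotation table of Tubbor1, matched by the number in the locus tag, and sequences of the assembly are numbered as in its record. Intervals are exact binomial (Clopper-Pearson), for ratios conditional on the sum of both counts. Ratios across all models used a pseudocount of 1 and a minimum of 1 CPM in 1 library. Functional names were read from the part of the study's annotation sheet at hand (827 models, 318 with a KOG number), and its value columns were not used. Copper chaperones and assembly factors of single complexes were left out. An Hsp90 cochaperone falls in the Hsp90 class by the order of the patterns.

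Both members, the lists and the rules were chosen with earlier results of these data known. Named genes are both members, the highest model of each chaperone class and those past the 2-fold limit in all 4 pairs, the 5 nearest profiles of each member, and the adjoining models. Planned comparisons of proteins and promoters were not analysed here. The alternatives were median-of-ratios scaling, totals without the 10 highest models of each library, other pseudocounts, no filter, a 3-fold limit and length-scaled counts. The procedure was tested on simulated data. The work was done in Python 3.11.15 with scipy 1.17.1, numpy 2.4.6, pandas 2.3.3 and, for the plots, matplotlib 3.10.9.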

Additional observations from a re-analysis of the deposited data

How the results depend on the processing

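No direction of either gene reversed under the alternatives tried. The log2 ratio of the woody-plant-based over the complex media was 4.64 for the small heat shock gene and 5.29 for the unclassed chaperone gene under median-of-ratios scaling, and 4.83 and 5.48 with totals that left out the 23 models among the 10 highest of any library, against 4.76 and 5.41 in CPM. Median-of-ratios scaling shifted the log2 ratios of a woody-plant over a complex-medium library by a median of -0.10 to -0.14 over the models. Under that scaling the log2 ratio of WPGY over WPG was -0.02 for both genes. The log2 ratio of MPY over PDB was 0.67 for the small heat shock gene, as it was with the smaller totals (0.67). A pseudocount of 1 moved none of these beyond counting error. Of the other chaperones, 2 passed under median-of-ratios scaling (982618 was lost) and 0 at a 3-fold limit. Among all models 779 passed with a pseudocount of 0.1, 461 under median-of-ratios scaling, 300 with a pseudocount of 5 and 204 at a 3-fold limit, against 558 as reported. Length scaling moved the ranks in MPY and PDB and none in WPGY and WPG. No paired analysis was possible because each medium had 1 library. Depth does not limit the values of both chaperones, which had at least 7282 counts in every library, whereas the spread between separate cultures is unknown.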
